A study of Drosophila melanogaster with 8 samples.

Results

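The 10 genes that encode the nicotinic acetylcholine receptor subunits of Drosophila, nAChRalpha1 to nAChRalpha7 and nAChRbeta1 to nAChRbeta3, were followed across fly heads of 2 genotypes at 2 times of day. They were taken by gene name from the deposited transcript tables. They are 10 of 16727 gene symbols and hold 31 of 35411 transcripts. Poly(A) RNA had been made from heads of wild-type flies, labelled as strain w1118, and of flies carrying the vri allele vriΔ679, written vri679 here. Each genotype was sampled at ZT2 (2 h after lights on) and at ZT14 (2 h after lights off), with 2 libraries in each of the 4 groups and 8 libraries in all. vri encodes a transcription factor of the circadian clock. No label says that replicates came from separate cultures, so p-values measure the spread between these samples. Whether the stocks have the same genetic background is not stated either, and a genotype difference here may belong to any locus at which they differ.

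Nicotinic acetylcholine receptors are ion channels built of 5 subunits around a central pore. Acetylcholine opens them and lets cations in, and in the insect brain they are the main receptors of fast excitatory transmission, the role that glutamate receptors have in vertebrates. The alpha subunits carry a pair of neighbouring cysteines at the acetylcholine site, and the beta subunits lack them. The same receptors are the targets of neonicotinoid and spinosyn insecticides. In a whole head, a subunit's RNA comes mostly from the brain and optic lobes, so its level depends on how much neuronal RNA the sample holds as well as on each neuron's output. In bulk samples such as these, fewer cells of a type and less RNA per cell cannot be told apart.

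Gene positions follow the deposited tables (dm6), and all 10 genes had the same start and end in the reference annotation. nAChRalpha1 (3R 24393896 to 24457157, minus strand), nAChRalpha2 (3R 24485428 to 24491147, plus strand) and nAChRbeta2 (3R 24509228 to 24515106, minus strand) lie within 121 kb of each other. nAChRalpha3 (X 8276200 to 8367169, minus strand) and nAChRalpha7 (X 19327075 to 19348447, minus strand) are X-linked. nAChRalpha4 (3L 23206669 to 23287448, plus strand) and nAChRbeta1 (3L 4429349 to 4435993, plus strand) lie on 3L. nAChRalpha5 (2L 14040170 to 14094401, plus strand), nAChRalpha6 (2L 9793317 to 9886250, minus strand) and nAChRbeta3 (2L 545129 to 547096, plus strand) lie on 2L. Of the nAChRalpha3 exon bases, 251 of 10506 also belong to exons of CG1636 on the opposite strand. Of the nAChRalpha4 exon bases, 247 of 6050 belong to exons of a long noncoding RNA, lncRNA:CR46475. The strand setting of the authors' counting is not given in the sources used here, so reads from these overlaps may have been divided either way.

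The libraries held 49.3 to 65.4 M mapped reads. Replicates correlated across genes at r = 0.967 in vri679 ZT14 and at 0.979 to 0.987 in the other groups. Libraries of the vri679 ZT14 group stand apart in 2 ways. In replicate 1, levels fell with transcript length. Relative to the wild-type mean, its median gene stood at 0.42 on the log2 scale for transcripts under 1 kb and at -0.51 for those over 4 kb, while the other 7 libraries stayed between -0.09 and 0.10 in every length class. The library labelled vri679 ZT14 replicate 2 goes partly against its label. It held 30 FPKM of the vri transcripts that start at the long-form first exon, against 0.0117 to 0.218 in the other 3 vri679 libraries. Wild type held 9.62 and 10.6 FPKM of them at ZT2 and 82.5 and 71.7 at ZT14. Of the other vri transcripts that library held 10.5 FPKM, against 0.0442 to 3.04 FPKM in wild type. The vri679 ZT2 libraries held 3.6 and 4.26 FPKM of these, and vri679 ZT14 replicate 1 held 21.5 FPKM. Results that rest on vri679 ZT14 are therefore given with and without these libraries, and descriptions are given by library.

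Levels below are in FPKM, a read number normalised to transcript length and library depth, summed over the transcripts of a gene and scaled between libraries. Because FPKM is per length, levels of different subunits can be compared. In wild-type heads the order was led by nAChRbeta1 at 280 ± 7.34 FPKM (SD, n = 4 libraries over both times). It made up 54.7 to 59.0 % of the summed subunit level in the 8 libraries, a level that includes a short transcript of 64 codons. Next came nAChRalpha6 at 47.3 ± 4.73, nAChRbeta2 at 46.4 ± 0.373 and nAChRalpha7 at 43.8 ± 2.34 FPKM. The ranges of neighbours among these 3 overlapped, so their order is not resolved. nAChRalpha2 (29.0 ± 1.60 FPKM) and nAChRalpha4 (21.7 ± 1.95 FPKM) followed with ranges apart from their neighbours. nAChRalpha5 (12.97 ± 1.28 FPKM) and nAChRalpha1 (11.8 ± 0.575 FPKM) overlapped each other, and nAChRalpha3 was lowest of the genes with signal at 8.02 ± 0.599 FPKM. The span from nAChRbeta1 to nAChRalpha3 was 34.9-fold. The gene that left this order by most was nAChRalpha4. It ranked sixth in 6 of 8 libraries, and ninth and seventh in the vri679 ZT14 replicates.

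nAChRbeta3, a divergent subunit, was listed at 0 FPKM in all 8 libraries, where 3 reads on its 1532 nt transcript would have given 0.0299 to 0.0397 FPKM. All 1532 of its exon bases also belong to exons of Ets21C, a transcription factor gene on the opposite strand that was listed at 1.57 to 5.15 FPKM. None of 12 housekeeping genes examined was listed at 0 in any library. The value of nAChRbeta3 may depend on how reads in the shared exons were assigned, which was not tested. It did not enter the tests, so 9 of the 10 subunit genes were tested, with 2296 to 44030 reads per gene and library.

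**Figure D1:**
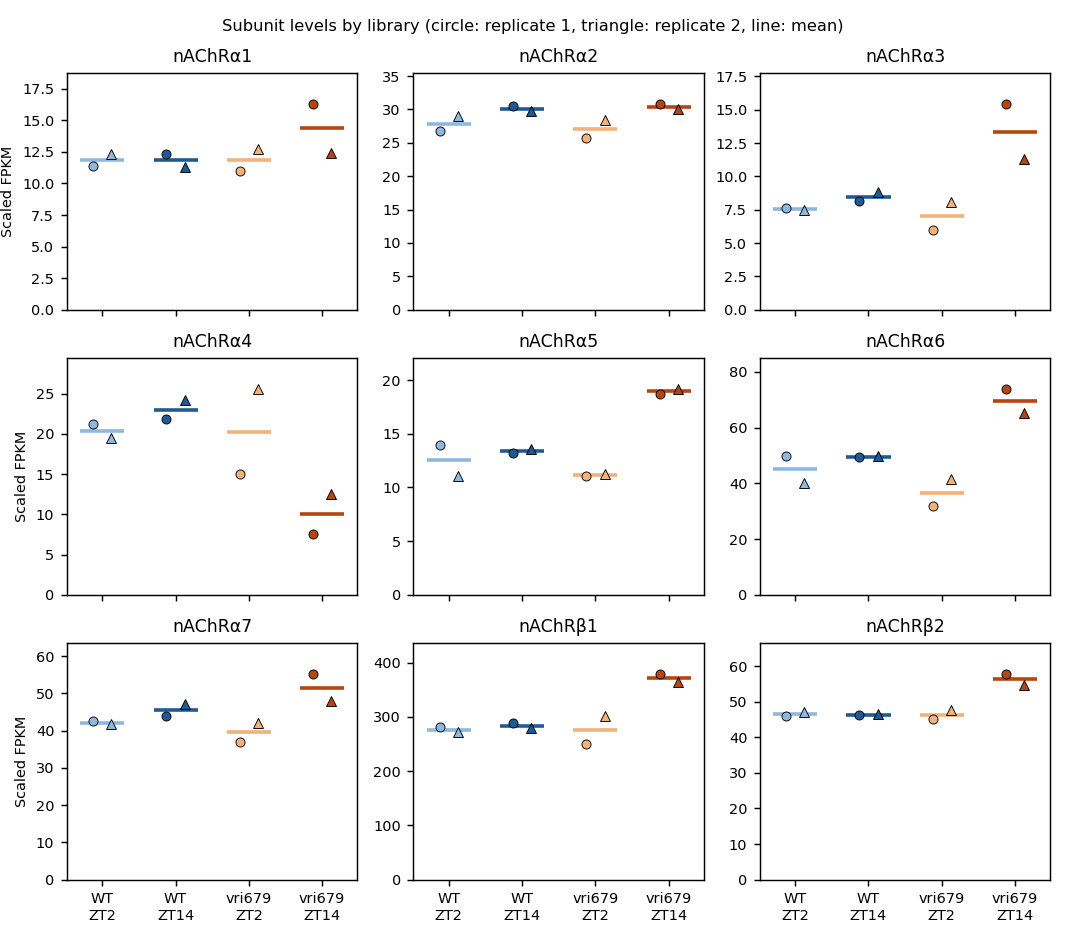
Scaled FPKM of the 9 nicotinic receptor subunit genes with signal in each of the 8 libraries, by genotype and time. nAChRbeta1 had the highest level, at 250 to 379 FPKM, and nAChRalpha4 falls to 7.53 and 12.5 FPKM in the vri679 ZT14 libraries.

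The first comparison was between genotypes at ZT14, in the early night. nAChRalpha4 fell in vri679 and nAChRalpha5 rose, and the other 7 subunits did not pass the test. These 2 of 9 subunits called stand against 22.3 % of all 10122 genes tested in the same comparison (9.53 % higher and 12.8 % lower), so the number of calls is not a result about the subunits. The members' own values follow.

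nAChRalpha4, known as redeye for the sleep loss of its mutants, was listed in wild-type ZT14 at 21.9 and 24.2 FPKM (replicates 1 and 2) and at 7.53 and 12.5 FPKM in vri679 ZT14. Both vri679 libraries lay below both wild-type libraries, at 0.435 of the wild-type mean. The log2 difference was -1.20 (SE 0.30, limma adjusted p = 0.0303). The call was lost when either wild-type ZT14 library was left out (-1.28 with adjusted p = 0.116 without replicate 1, -1.13 with 0.149 without replicate 2), when vri679 ZT14 replicate 1 was left out (-0.86, 0.103) and when a wild-type ZT2 library was left out (0.0583 without replicate 1 and 0.058 without replicate 2). It was kept without the library labelled vri679 ZT14 replicate 2 (-1.55, 0.0107). Its transcripts are long, 5514 nt on average weighted by level, and with the length trend of every library removed, an alternative added after the data were seen, the difference was -0.91 (adjusted p = 0.0155).

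nAChRalpha5, which with nAChRalpha6 and nAChRalpha7 is closest in sequence to the vertebrate alpha7 subunit, stood at 13.2 and 13.6 FPKM in wild-type ZT14 and at 18.7 and 19.2 FPKM in vri679 ZT14. The vri679 libraries were both higher, by 1.41-fold of the means (log2 difference 0.48, SE 0.13, limma adjusted p = 0.0387). The difference was 0.47 (0.0344) without the library labelled vri679 ZT14 replicate 2 and 0.50 (0.054) without replicate 1. The call was also lost without either wild-type ZT14 library (adjusted p = 0.178 without replicate 1 and 0.158 without replicate 2) and without either vri679 ZT2 library (0.0741 and 0.0739). With the length trend removed the difference was 0.80 (0.0259).

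nAChRalpha6, the target of spinosyns and a transcript that is edited at several adenosines, stood at 49.3 and 49.7 FPKM in wild-type ZT14 and at 73.9 and 65.2 FPKM in vri679 ZT14 (log2 difference 0.48, SE 0.17, adjusted p = 0.0827 with limma). nAChRalpha3 stood at 8.17 and 8.80 against 15.4 and 11.3 FPKM (0.61, SE 0.19, 0.0607). nAChRbeta1, a beta subunit in which a mutation gives neonicotinoid resistance in other insects, stood at 289 and 279 against 379 and 364 FPKM (0.39, SE 0.13, 0.0801). In all 3 both vri679 libraries lay above both wild-type libraries, and none passed the threshold of 0.05. The full-length transcript of nAChRbeta1, tested among all transcripts, differed by 0.23 (SE 0.11, adjusted p = 0.309 with limma), less than the gene.

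nAChRbeta2 stood at 46.3 and 46.5 FPKM in wild-type ZT14 against 57.7 and 54.8 FPKM in vri679 (0.28, SE 0.10, adjusted p = 0.0907 with limma). nAChRalpha7, needed in the giant fibre escape circuit, stood at 43.8 and 47.1 against 55.2 and 47.8 FPKM (0.18, SE 0.12, 0.331). nAChRalpha1, whose loss gives resistance to neonicotinoids, stood at 12.4 and 11.3 against 16.3 and 12.4 FPKM (0.26, SE 0.16, 0.26). The groups of these 3 did not overlap, although the gap between the nearest libraries was small for nAChRalpha1 and nAChRalpha7. nAChRalpha2 overlapped, with 30.5 and 29.7 against 30.8 and 30.0 FPKM (0.02, SE 0.11, 0.924).

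In all, 7 subunits were higher with no overlap between groups, 1 was lower with no overlap and 1 overlapped. Over all genes tested, 31.6 % were higher and 31.6 % lower without overlap. The subunits' median log2 difference was 0.28, beside -0.01 over all genes. Without the library labelled vri679 ZT14 replicate 2, 6 subunits were called with limma, nAChRalpha1 (0.45), nAChRalpha3 (0.83), nAChRalpha5 (0.47), nAChRbeta1 (0.41) and nAChRbeta2 (0.31) higher and nAChRalpha4 lower, where 24.3 % of all genes were higher and 27 % lower, 51.3 % in all. Without vri679 ZT14 replicate 1, none was called with limma and 4 of 9 had an unadjusted p under 0.05, where 7.9 % of all genes were higher and 13.6 % lower, 21.5 % in all. A fit that leaves out one of these libraries assumes that the lone library varies like the other groups. With the length trend removed 5 were called, nAChRalpha5, nAChRalpha6 (0.79, adjusted p = 0.042), nAChRbeta1 (0.42, 0.0428) and nAChRbeta2 (0.34, 0.0266) higher and nAChRalpha4 lower, where 13.2 % of all genes were higher and 16.1 % lower, 29.3 % in all.

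At ZT2, 2 h after lights on, none of the 9 subunits was called with limma and none had an unadjusted p under 0.05, where 2.88 % of all genes were called. The log2 differences ran from -0.30 for nAChRalpha6 (SE 0.17, adjusted p = 0.505 with limma) to -0.00 for nAChRalpha1, and the groups of libraries overlapped for all 9, beside 28.4 % of all genes higher and 29.3 % lower without overlap. nAChRalpha6 stood at 49.9 and 40.2 FPKM in wild type and at 31.7 and 41.4 FPKM in vri679. nAChRalpha4 stood at 21.2 and 19.5 in wild type and at 15.0 and 25.6 FPKM in vri679, so the mutant replicates lay on either side of the wild-type pair. Averaged over both times, no subunit was called with limma and 1 had an unadjusted p under 0.05, where 14.1 % of all genes were called. The value nearest the threshold was that of nAChRalpha4 at -0.63 (SE 0.21, 0.0915), which was -0.80 and passed when the library labelled vri679 ZT14 replicate 2 was left out. Of all genes, 40.5 % then passed. Without replicate 1 no subunit passed or had an unadjusted p under 0.05, where 21.7 % of all genes passed. With the length trend removed it was -0.50 and passed (0.0437), as 21 % of all genes did.

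Time of day was compared within each genotype. In wild type no subunit was called with limma between ZT14 and ZT2, where 6.63 % of all genes were, and none had an unadjusted p under 0.05. The log2 differences lay between -0.00 and 0.17. For 4 subunits both ZT14 libraries were above both ZT2 libraries, beside 32.1 % of all genes. In vri679, nAChRalpha3, nAChRalpha5 and nAChRalpha6 rose from ZT2 to ZT14. These 3 of 9 stand against 9.97 % of all genes called (3.59 % higher and 6.38 % lower). Both comparisons in vri679 at ZT14, with genotype and with time, use the same vri679 ZT14 libraries.

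nAChRalpha6 rose from 31.7 and 41.4 FPKM at ZT2 to 73.9 and 65.2 FPKM at ZT14 in vri679, 1.90-fold of the means (log2 difference 0.93, SE 0.17, limma adjusted p = 0.0214). nAChRalpha5 rose from 11.1 and 11.3 to 18.7 and 19.2 FPKM, 1.70-fold (0.74, SE 0.13, 0.0189). nAChRalpha3 rose from 5.94 and 8.08 to 15.4 and 11.3 FPKM, 1.90-fold (0.88, SE 0.19, 0.0353). All 3 were higher at ZT14 in both libraries, and the vri679 ZT2 replicates of nAChRalpha3 and nAChRalpha6 differed more between themselves than those of nAChRalpha5. Leaving out either vri679 ZT2 library ended the call of nAChRalpha5 (0.104 without replicate 1 and 0.097 without replicate 2), and it was the subunit still called without vri679 ZT14 replicate 1 (0.75, 0.0307), as 9.48 % of all genes were. The call of nAChRalpha3 was kept only without the library labelled vri679 ZT14 replicate 2 (1.10, 0.00581), and its adjusted p was 0.0642 to 0.167 without each other library. That of nAChRalpha6 was lost without vri679 ZT2 replicate 1 (0.11), vri679 ZT14 replicate 1 (0.0522), or either wild-type ZT14 library (0.0523 for each).

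Of the other subunits in vri679, nAChRalpha4 went from 15.0 and 25.6 FPKM at ZT2 to 7.53 and 12.5 FPKM at ZT14 without passing the test (-0.98, SE 0.30, adjusted p = 0.0809 with limma). nAChRbeta1 went from 250 and 301 to 379 and 364 FPKM (0.44, SE 0.13, 0.0831), and nAChRalpha7 from 36.9 and 42.2 to 55.2 and 47.8 FPKM (0.38, SE 0.12, 0.098). For 7 subunits the ZT14 libraries were both above the ZT2 libraries and for 1 both below, beside 27.4 % and 28.9 % of all genes. With the length trend removed, 4 were called, nAChRalpha3 (1.20, 0.0432), nAChRalpha5 (1.03, 0.0192) and nAChRalpha6 (1.21, 0.0181) higher and nAChRalpha4 (-0.72, 0.0477) lower, where 17.6 % of all genes were. Without the library labelled vri679 ZT14 replicate 2, all but nAChRalpha2 were called, 8 of 9, where 45.6 % of all genes were.

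Whether the time difference itself differed between genotypes was tested by the genotype by time term. None of the 9 subunits was called with limma, where 8.25 % of all genes were. 4 of 9 had an unadjusted p under 0.05. The log2 values were 0.63 for nAChRalpha5 (SE 0.18, adjusted p = 0.0802), 0.78 for nAChRalpha6 (SE 0.24, 0.0947), -1.15 for nAChRalpha4 (SE 0.42, 0.139) and 0.72 for nAChRalpha3 (SE 0.27, 0.146). The rise of nAChRalpha3, nAChRalpha5 and nAChRalpha6 in vri679 is therefore not shown to differ from their time course in wild type. Without the library labelled vri679 ZT14 replicate 2, all 4 passed (nAChRalpha3 0.94, nAChRalpha4 -1.50, nAChRalpha5 0.62 and nAChRalpha6 0.87), where 41.5 % of all genes did. Without replicate 1 none passed and 2 had an unadjusted p under 0.05, where 12.8 % of all genes passed. With the length trend removed none passed and 5 had an unadjusted p under 0.05, where 15 % of all genes passed.

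**Figure D2:**
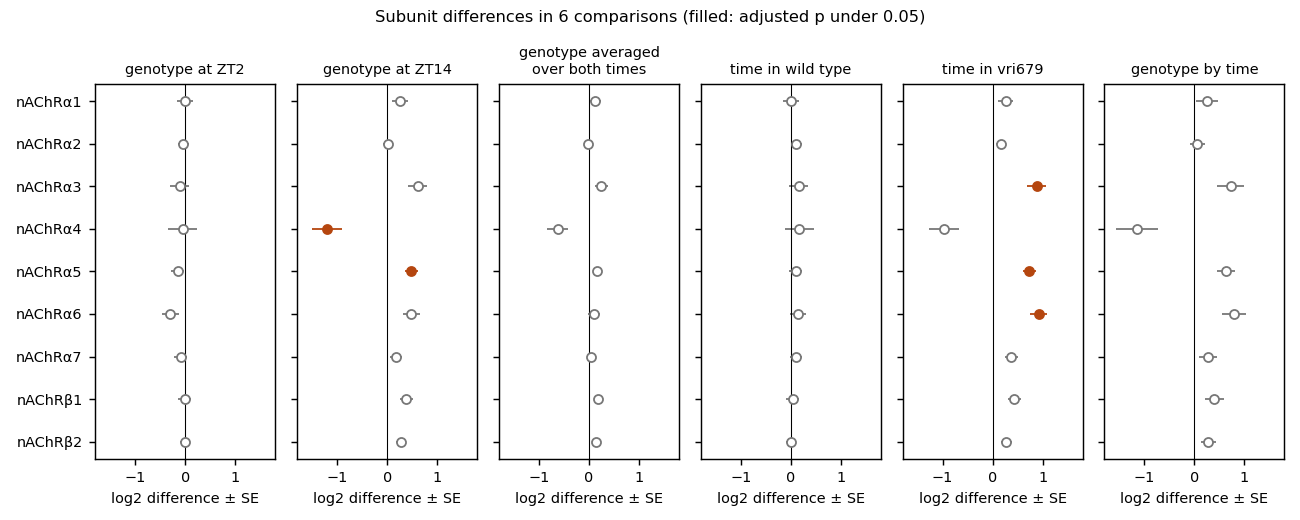
Log2 differences of the 9 tested subunits, with bars of 1 SE, in the 6 comparisons, filled where limma's adjusted p is under 0.05. nAChRalpha4 lies lowest at ZT14 (-1.20) and in vri679 over time (-0.98), and the panels for ZT2, both times averaged, time in wild type and genotype by time hold no filled point.

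The makeup of the subunit RNA was described by library. Summed over the genes, subunit RNA came to 501, 480, 515 and 510 FPKM for wild-type ZT2 and ZT14 in turn, to 432 and 518 for vri679 ZT2 and to 654 and 617 FPKM for vri679 ZT14. nAChRalpha4 made up 12.1 to 13.1 % of the summed alpha level in the 4 wild-type libraries, 10.9 and 15.1 % in vri679 ZT2, and 3.46 and 6.30 % in vri679 ZT14. nAChRalpha6 made up 24.9 to 28.7 % in wild type, 23.1 and 24.4 % in vri679 ZT2, and 33.9 and 32.9 % in vri679 ZT14. Summed alpha over summed beta level was 0.506 to 0.567 in wild type, 0.466 and 0.487 in vri679 ZT2, and 0.499 and 0.474 in vri679 ZT14. With nAChRbeta1 counted by its full-length transcript alone, the ratio was 0.646 to 0.725 in wild type. It was then 0.613 and 0.663 in vri679 ZT2, and 0.716 and 0.650 in vri679 ZT14. These ratios compare genes within a library and do not depend on the scaling between libraries, but they do carry the length trend of vri679 ZT14 replicate 1. They are given as a description and without a test.

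As a readout of the neuronal share of head RNA, the subunits were set beside 18 pan-neuronal genes. The 2 lists went in opposite directions in 1 vri679 ZT14 library and in the same direction in the other. Relative to the wild-type mean, the median log2 level of the tested subunits was 0.43 and 0.24 in vri679 ZT14 replicates 1 and 2, while that of the pan-neuronal list was -0.30 and 0.20. Summed pan-neuronal level was 2378 to 2409 FPKM in wild type, 2423 and 2705 in vri679 ZT2, and 1770 and 2588 FPKM in vri679 ZT14. elav, the RNA-binding protein used as the standard neuronal marker, stood at 17.7 to 19.0 FPKM in wild type and at 18.4 and 23.7 FPKM in vri679 ZT14. brp, a scaffold of the presynaptic active zone, stood at 15.3 to 26.2 FPKM in wild type and at 2.70 and 21.0 FPKM in vri679 ZT14. Thus within 1 library elav lay inside the wild-type range and brp far under it.

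Of the 18 pan-neuronal genes, 2 rose and none fell between genotypes at ZT14, with a median of -0.16. Of all genes, 9.53 % rose and 12.8 % fell. The 2 pan-neuronal genes that rose were cac, the presynaptic calcium channel (1.10, limma adjusted p = 0.01), and fne, an elav relative (0.49). Without vri679 ZT14 replicate 1 the median of the list was 0.17, and without the library labelled replicate 2 it was -0.35. Across the 8 libraries, Pearson's r with the pan-neuronal mean was between -0.596 and -0.208 for 8 subunits and 0.648 for nAChRalpha4. The same libraries and scaling enter both sides, so r is a description only. The pan-neuronal mean was lowest in vri679 ZT14 replicate 1, the library with the length trend. Whether the sign of r rests on that library was not tested. With libraries scaled to the pan-neuronal genes instead, nAChRalpha4 at ZT14 was still called with limma (-1.11, adjusted p = 0.0293), where 5.47 % of all genes were, while nAChRalpha5 (0.58, 0.196) was not. In the time comparison in vri679 no subunit was called under that scaling and 4 had an unadjusted p under 0.05, where 1.58 % of all genes were called. The values of nAChRalpha3, nAChRalpha5 and nAChRalpha6 were 1.05, 0.91 and 1.10. That scaling moves the median of all genes by 0.17 in this comparison, the size by which the 3 values differ from the main ones.

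Markers of other head cells also stood apart from the wild-type mean in the vri679 ZT14 libraries, some of them in vri679 ZT2 as well. Relative to the wild-type mean, the median of 7 glial genes was -0.47 and -0.56 in vri679 ZT14 and that of 14 photoreceptor genes 0.33 and 0.32. That of 10 muscle genes was -0.49 and -0.59, and that of 7 hemocyte genes -1.36 and -1.48. In vri679 ZT2 the medians were -0.25 and -0.32, -0.01 and -0.08, -0.15 and -0.25, and -0.45 and -0.31 in the same order. The wild-type libraries ran from -0.07 to 0.09, -0.17 to 0.12, -0.27 to 0.32 and -0.45 to 0.81. The time difference of the muscle genes in wild type had a median of 0.57. In the genotype comparison at ZT14, 6 of 7 glial genes fell and none rose (median -0.75), with Gs2, the glial glutamine synthetase, at 1041 and 968 FPKM in wild type and at 553 and 552 FPKM in vri679. Of the photoreceptor genes 6 rose and 1 fell (median 0.50), among them ninaE, the main rhodopsin, which stood at 12610 and 10240 FPKM in wild type and at 19540 and 20170 FPKM in vri679. Of the muscle genes 5 fell (median -0.73), of the fat body genes 4 of 7 (median -1.70), and of the hemocyte genes 3 of 7 (median -1.10). Of all genes tested, 9.53 % rose and 12.8 % fell in this comparison. Without vri679 ZT14 replicate 1 the medians were -0.58 for glial, -0.73 for muscle, -1.94 for fat body and -1.07 for hemocyte genes. That of the photoreceptor genes was 0.56. With the library labelled replicate 2 left out, the medians were -0.69, -0.75, -1.46 and -1.125 in the same order, and 0.53 for photoreceptor genes. None of the markers in these lists was at 0 in any library, their summed levels spanned 770 to 1390 FPKM for glia, 4320 to 9190 for muscle, 42.9 to 168 for hemocytes and 1728 to 13290 for fat body, and their part in the subunit differences was not tested.

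**Figure D3:**
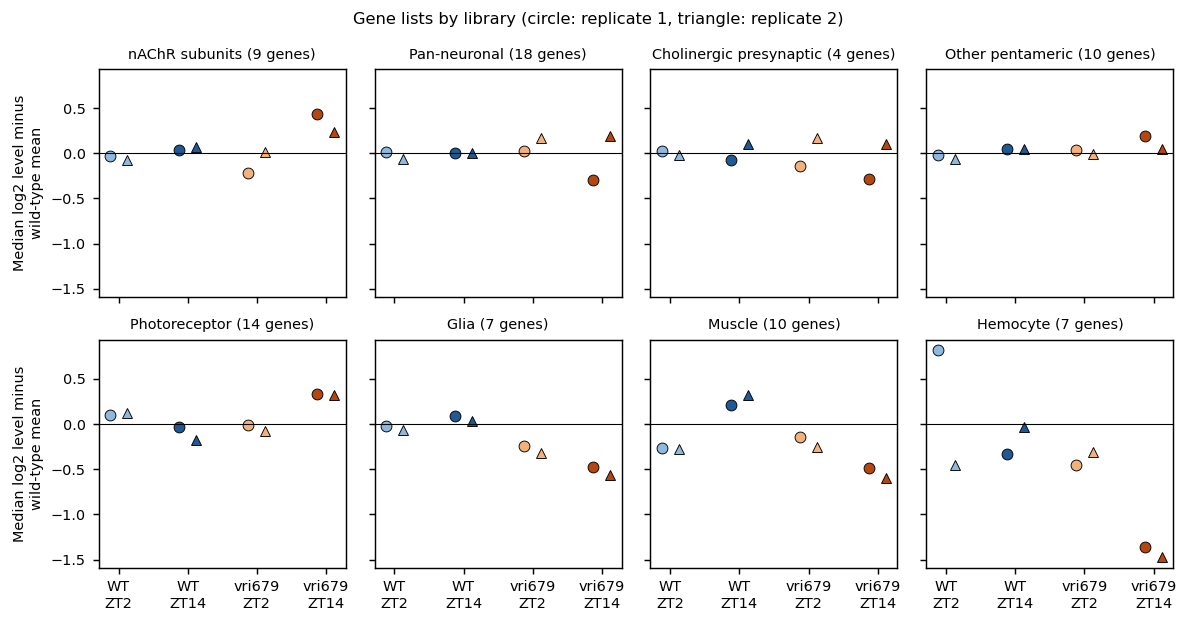
Median log2 level relative to the mean of the 4 wild-type libraries for the nicotinic subunits, the pan-neuronal genes, cholinergic presynaptic genes, other pentameric channels and markers of other head cells, in each of the 8 libraries. In vri679 ZT14 replicate 1 the subunits stand at 0.43 and the pan-neuronal genes at -0.30. Glia, muscle and hemocyte markers lie below 0 in both vri679 ZT14 libraries and, less far, in both vri679 ZT2 libraries.

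The genes that make, load, break down and recover acetylcholine did not pass the test. ChAT, which makes acetylcholine and is listed as Cha, stood at 43.4 and 49.9 FPKM in wild-type ZT14 and at 51.5 and 56.2 FPKM in vri679 ZT14 (0.21, adjusted p = 0.307 with limma). VAChT, the vesicular transporter that shares its locus, stood at 43.1 and 49.3 against 50.7 and 49.5 FPKM (0.12, 0.522). Ace, the acetylcholinesterase that ends the signal, stood at 46.8 and 49.3 against 26.2 and 42.2 FPKM (-0.52, 0.123), and ChT, the choline transporter, at 35.4 and 40.9 against 22.4 and 40.0 FPKM (-0.34, 0.363). None of these 4 was called in the other 5 comparisons. For Ace and ChT replicate 1 of vri679 ZT14 lay far under replicate 2. Without the latter both were called lower at ZT14, 2 of 4 beside 27 % of all genes lower and 51.3 % called in all. Without replicate 1 none of the 4 was called, beside 21.5 % of all genes.

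Neither of the 2 muscarinic receptor genes tested passed in any comparison over all 8 libraries, mAChR-A (-0.16 at ZT14, adjusted p = 0.626 with limma) and mAChR-B (-0.32, 0.315), while mAChR-C did not reach the filter, at no more than 0.13 FPKM. Without the library labelled vri679 ZT14 replicate 2, the median log2 difference of the 2 was -0.57 at ZT14 and -0.60 for time in vri679. Without replicate 1 it was 0.09 at ZT14 and 0.05 for time in vri679. None of 6 genes that act on nicotinic receptors passed at ZT14, beside 22.3 % of all genes. RIC-3, a chaperone of receptor assembly, differed by -0.08 (0.576), and qvr, the sleep-promoting Ly6 protein also called sleepless, by 0.01 (0.964). hig and Hasp, secreted proteins of cholinergic synapses, differed by -0.12 and 0.13. Unc50, whose Caenorhabditis elegans relative acts in receptor transport, differed by 0.16 (0.342). The median of the 6 was 0.05, and it was 0.01 with the library labelled vri679 ZT14 replicate 2 left out and 0.07 without replicate 1. The last list held 12 related channels of the same pentameric family, which include channels opened by GABA, glutamate or histamine and mostly carry chloride. Of these, 10 were tested and none passed at ZT14 (median 0.08), beside 22.3 % of all genes. Rdl, the main GABA receptor subunit, differed by 0.24 (0.475), and GluClalpha, the glutamate-gated chloride channel, by 0.09. Without the library labelled vri679 ZT14 replicate 2, 3 of the 10 were higher and 2 lower, beside 24.3 % and 27 % of all genes, and without replicate 1 none was called.

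Isoforms of a subunit share most of their reads, and the authors' tool divided them, so shares are less certain than gene levels. For nAChRalpha4, 1 row of the table matches RC and RH, annotated transcripts that differ only in which of a pair of 181-base exons they hold (3L 23238837 to 23239017 or 23247007 to 23247187). Both encode 539 codons. Transcript RD lacks the exon and its annotated reading frame has 371 codons. The RC or RH row made up 89.7, 60.7, 90.1 and 89.4 % of nAChRalpha4 in the wild-type libraries (ZT2 then ZT14), 68.9 and 71.5 % in vri679 ZT2, and 35.8 and 79.1 % in vri679 ZT14. RD made up 4.39, 38.9, 4.62 and 10.5 % in wild type, 26.6 and 28.3 % in vri679 ZT2, and 59.4 and 16.2 % in vri679 ZT14. Both the wild-type ZT2 pair and the vri679 ZT14 pair were widely split.

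In level, the nAChRalpha4 RC or RH row stood at 19.7 and 21.7 FPKM in wild-type ZT14 against 2.69 and 9.89 FPKM in vri679 ZT14, without passing the test over all transcripts (-1.88, SE 0.62, adjusted p = 0.16 with limma). It passed without the library labelled vri679 ZT14 replicate 2 (-2.73, 0.0266) and not without replicate 1 (-1.03, 0.298). RD stood at 1.01 and 2.54 against 4.48 and 2.02 FPKM (0.73, SE 0.92, 0.665). No subunit transcript was called between genotypes at ZT14, where 4.75 % of 18982 transcripts were.

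nAChRalpha6 has alternative forms of 2 of its exons. Transcripts with the 45-base exon that starts at 2L 9825297 held 16.4, 16.7, 21.0 and 23.9 % of the gene's level in wild type. They held 28.7 and 32.2 % in vri679 ZT2, and 16.4 and 12.7 % in vri679 ZT14. Those with the other 45-base exon, which starts at 2L 9819287, held 79.0 to 85.3 % in wild type. They held 90.1 and 87.2 % in vri679 ZT2, and 83.6 and 87.3 % in vri679 ZT14. Transcript RD holds both exons and counts in both shares. Transcript RG was the most abundant, at 73.3 to 80.3 % in wild type, 69.5 and 65.7 % in vri679 ZT2 and 75.8 and 81.8 % in vri679 ZT14. RD was listed at 0 in 5 libraries and at 9.23, 18.8 and 19.4 % in wild-type ZT14 replicate 2 and the vri679 ZT2 replicates. RG rose between ZT2 and ZT14 in vri679, from 22.1 and 27.2 to 56.0 and 53.3 FPKM (1.14, SE 0.16, limma adjusted p = 0.0313), as did the minor transcript RC, named after its values were seen, from 0.559 and 0.890 to 4.64 and 3.62 FPKM (1.92, SE 0.29, 0.0389). They were the only subunit transcripts called in the 6 comparisons, beside 2.39 % of all transcripts in this one. The shares of all transcripts called were 0.738 % for genotype at ZT2, 3.05 % for genotype averaged, 1.12 % for time in wild type and 1.91 % for genotype by time. Each kept its call in 1 of the 8 fits that left out a library, that without the library labelled vri679 ZT14 replicate 2 (nAChRalpha6-RG 1.17, 0.0283, and RC 2.08, 0.0264).

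nAChRalpha7 transcript RF holds an 85-base exon (X 19344905 to 19344989) that RD lacks, and both encode 560 codons. RF made up 0.217 and 0.136 % of the gene in wild-type ZT2, 10.6 and 9.29 % in wild-type ZT14, 0.235 and 16.2 % in vri679 ZT2, and 42.6 and 16.3 % in vri679 ZT14. RD made up 92.0, 93.8, 81.7 and 84.5 % in wild type, 90.3 and 76.7 % in vri679 ZT2, and 47.8 and 77.3 % in vri679 ZT14. In wild type the time groups did not overlap in share, but RF did not pass the test over all transcripts. Its log2 difference for time in wild type was 3.12 (SE 1.22, adjusted p = 0.429 with limma), where 1.12 % of transcripts were called. Among gene levels, 32.1 % of all genes were higher at ZT14 without overlap in that comparison. In vri679, ZT2 replicate 2 was close to ZT14 replicate 2.

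nAChRbeta1 is listed with a full transcript, RA, of 521 codons and a short one, RB, of 2 exons, 818 nt and 64 codons. RB made up 29.3, 25.4, 25.0 and 25.5 % in wild type, 28.4 and 30.8 % in vri679 ZT2, and 34.9 and 31.2 % in vri679 ZT14. RA alone stood at 217 and 208 FPKM in wild-type ZT14 and at 246 and 251 FPKM in vri679 ZT14. The genotype difference at ZT14 was 0.23 for RA (SE 0.11, limma adjusted p = 0.309) and 0.77 for RB (SE 0.18, 0.0839). With RA alone in place of the gene, nAChRbeta1 was not called at ZT14 and its unadjusted p was not under 0.05. For nAChRalpha5, RD made up 26.6 to 37.8 % in wild type, 35.2 and 58.7 % in vri679 ZT2, and 56.6 and 39.8 % in vri679 ZT14, and for nAChRalpha3, RC held 94.3 to 99.6 % in every library.

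**Figure D4:**
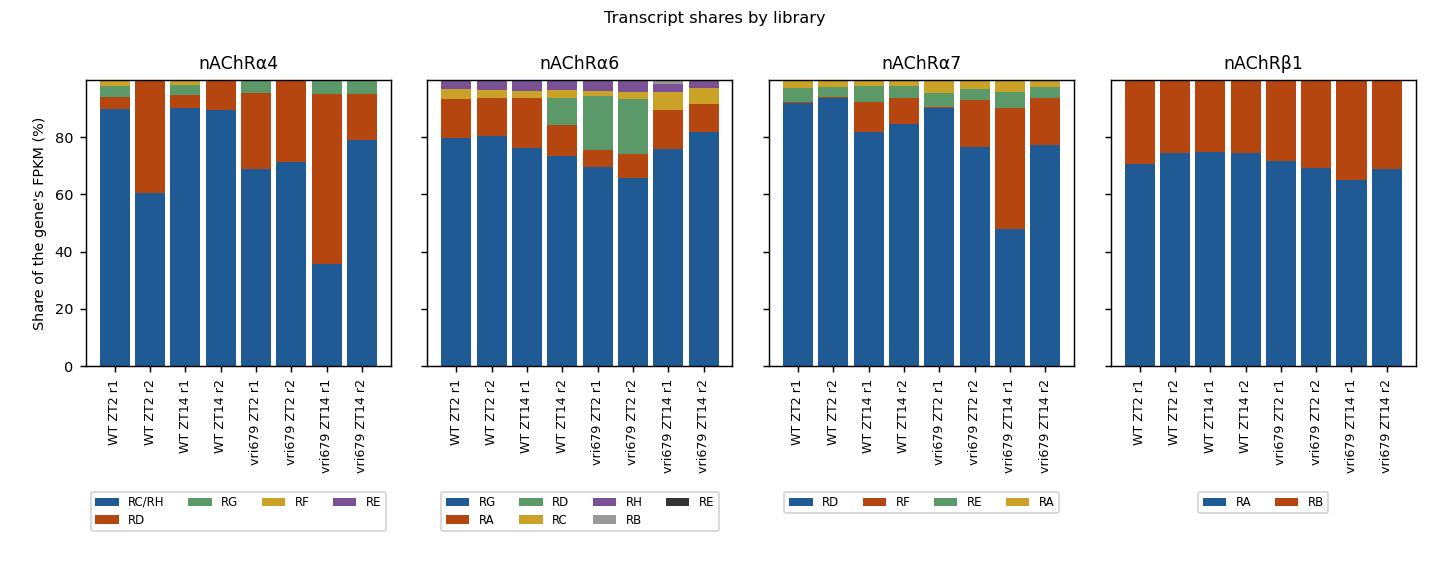
Percent of each gene's FPKM held by each listed transcript (stacked bars) in the 8 libraries, for nAChRalpha4, nAChRalpha6, nAChRalpha7 and nAChRbeta1. nAChRalpha4-RD ranges from 4.39 to 59.4 % and nAChRalpha7-RF from 0.136 to 42.6 %, with the highest value of each in vri679 ZT14 replicate 1.

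The genes whose level followed the subunits most closely were ranked by Pearson's r over the 8 libraries with the mean log2 level of the tested subunits. The highest were sif (0.994), CG11509 (0.972), dpr (0.966), AGO1 (0.955) and nmo (0.955). sif, the guanine nucleotide exchange factor still life, stood at 97.3, 93.1, 106 and 109 FPKM in wild type (ZT2 then ZT14), at 70.3 and 99.4 FPKM in vri679 ZT2 and at 148 and 126 FPKM in vri679 ZT14. Among the subunits themselves, r with the mean of the others was 0.652 to 0.944 for 8 of them and -0.695 for nAChRalpha4. All values rest on the same 8 libraries, 4 groups and scaling, and are a description.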

How the data were processed

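For each of 8 libraries the authors deposited a transcript table with FPKM and, per the file headers, a per-base coverage signal, which served only to recover read numbers. Reads were aligned to dm6, and the tools named are STAR 2.6.1d and StringTie, per the submitters' processing notes. The library kit was directional and reads were 75 nt single-end, per the labels' protocols. The strand setting is not given in the sources used here. Transcript FPKM was summed per gene symbol, scaled by medians of ratios to 12078 common genes (factors 0.972 to 1.041) and tested as log2(FPKM + 0.5), on which scale changes of low genes are understated. Genes with at least 1 FPKM in at least 2 libraries entered a limma 3.58.1 fit of the 4 groups (R 4.3.3, statmod 1.5.0, eBayes with trend and robust options). The comparisons were drawn from it, with Benjamini-Hochberg adjustment over 10122 genes and a threshold of 0.05. Transcripts were tested likewise. The fit was tested on simulated data. All groups share a spread per gene, although vri679 ZT14 varied most.

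The subunits and the other gene lists were chosen with earlier results of these data known. Named genes were all subunits, transcripts with at least 10 % of a gene's level in a group mean, members of lists by call or level, and the 5 genes most like the subunits. Alternatives were other filters, scalings, pseudocounts and fits, a replicate block and each library left out. Removal of the length trend (loess, span 0.3) and full-length nAChRbeta1 alone were added after the data were seen. Transcripts were compared with Ensembl's BDGP6.54 annotation (release 115), to which 30 of 31 subunit transcripts matched, 26 of them to exactly 1 transcript.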

Additional observations from a re-analysis of the deposited data

Results flagged for a closer look

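The test of a genotype difference in the time course was read for the lists on acetylcholine signalling and pentameric channels. Tested were 4 genes of acetylcholine handling, 2 muscarinic receptors, 6 genes that act on nicotinic receptors and 10 other pentameric channels. Of these, 1 was called, beside 8.25 % of all genes, so the number of calls is not a result about the lists. The gene called was CG12344, which encodes a channel of the same pentameric family. It stood at 7.14 and 7.45 FPKM in wild-type ZT2 and 7.65 and 7.64 FPKM in wild-type ZT14. In vri679 it stood at 10.5 and 9.80 FPKM at ZT2 and at 4.75 and 6.42 FPKM at ZT14. The genotype by time value was -0.88 on the log2 scale (SE 0.21, limma adjusted p = 0.0487), with a time difference of 0.06 in wild type and -0.82 in vri679 (0.0203). The call was kept in 2 of 8 fits that left out a library, among them that without the library labelled vri679 ZT14 replicate 2 (0.00378), and the highest adjusted p was 0.168. No nicotinic subunit was flagged. Among the markers of other head cells, more genes passed the same test, 5 of 14 photoreceptor genes higher, and 3 of 10 muscle, 3 of 7 fat body and 2 of 7 hemocyte genes lower, beside 8.25 % of all genes.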

How the results depend on the processing

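At ZT14 the number of subunits called between genotypes, 2 of 9, was 0 with no filter, 0 with equal totals, 0 with only the groups compared, 1 with pan-neuronal scaling, 5 on FPKM as deposited and 5 with the length trend removed. Averaged over both times it went from 0 to 1 with the replicate block (nAChRalpha4 -0.63, adjusted p = 0.0486) and to 1 with the length trend removed. For time in vri679 it went from 3 to 0 with pan-neuronal scaling, to 0 with only the groups compared and to 2 with no filter, where nAChRalpha3 was lost (adjusted p = 0.0547). The cause of these changes was not tested. Pseudocounts, a filter of 5 FPKM and eBayes without trend and robust options moved no subunit's call or direction.

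The number of all genes called at ZT2, 292, was 172 with a filter of 5 FPKM, 114 with pan-neuronal scaling and 490 with the length trend removed. At ZT14 it was 554 with pan-neuronal scaling and 789 with only the groups compared, and averaged over both times 353 with pan-neuronal scaling. For time in wild type it was 191, 1567 and 1115 with pan-neuronal scaling, only the groups compared and the length trend removed, and for time in vri679 160, 183 and 1785. For genotype by time it was 164 with pan-neuronal scaling and 1521 with the length trend removed.

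With each library left out, all genes called ranged from 94 to 618 at ZT2, 599 to 5188 at ZT14, 493 to 4097 averaged, 148 to 1442 for time in wild type, 262 to 4612 for time in vri679 and 255 to 4197 for genotype by time. Subunits called ranged from 0 to 6 at ZT14, 0 to 2 averaged, 0 to 8 for time in vri679 and 0 to 4 for genotype by time. Subunit transcripts called ranged from 0 to 1 at ZT2, averaged, for time in wild type and for genotype by time, from 0 to 5 at ZT14 and from 0 to 6 for time in vri679. The highest counts of subunits came without the library labelled vri679 ZT14 replicate 2.

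Replicate numbers did not pair the samples. Deviations of same-numbered libraries correlated at -0.143 to 0.270. With the replicate block, time in vri679 gave 4 calls for 3 (nAChRalpha4 -0.98, 0.0451), and the counts at ZT2, at ZT14, for time in wild type and for genotype by time did not move.

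No subunit difference that changed sign had been called. On FPKM as deposited, ZT2 values were 0.0688 for nAChRalpha1, 0.0308 for nAChRalpha2, 0.0194 for nAChRalpha4, 0.0622 for nAChRbeta1 and 0.0676 for nAChRbeta2, and nAChRalpha2 averaged 0.0589. With equal totals, ZT2 values were 0.0926 for nAChRalpha1, 0.0551 for nAChRalpha2, 0.0437 for nAChRalpha4, 0.00287 for nAChRalpha7, 0.0869 for nAChRbeta1 and 0.0920 for nAChRbeta2. With equal totals nAChRalpha2 was -0.0133 at ZT14, 0.0209 averaged and -0.0684 for genotype by time, and time in wild type was 0.0451 for nAChRalpha1 and 0.0437 for nAChRbeta2. With the length trend removed, nAChRbeta1 was 0.0228 and nAChRbeta2 0.0225 at ZT2, and nAChRalpha2 averaged 0.0409.

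With each library left out, values whose sign changed at ZT2 ranged from -0.1024 to 0.0979 for nAChRalpha1, -0.1131 to 0.0293 for nAChRalpha2, -0.3216 to 0.0920 for nAChRalpha3, -0.4289 to 0.3233 for nAChRalpha4, -0.309 to 0.00772 for nAChRalpha5, -0.1894 to 4.042e-05 for nAChRalpha7, -0.146 to 0.1226 for nAChRbeta1 and -0.0434 to 0.0320 for nAChRbeta2. For nAChRalpha2 the range was -0.00203 to 0.0336 at ZT14, -0.0486 to 0.0225 averaged and -0.0135 to 0.1289 for genotype by time. Averaged, it was -0.00286 to 0.1868 for nAChRalpha6 and -0.0106 to 0.0915 for nAChRalpha7. For time in wild type it was -0.0633 to 0.0614 for nAChRalpha1, -0.0564 to 0.2603 for nAChRalpha5, -0.0100 to 0.2979 for nAChRalpha6 and -0.0173 to 0.00977 for nAChRbeta2.

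Each subunit tested had at least 2296 reads in a library. With 2 libraries in a group, a difference smaller than the spread of such a pair was not detectable.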
